A study of Sus scrofa with 4 samples.

Results

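The COP9 signalosome is a protein complex that removes NEDD8, a small ubiquitin-like protein, from cullins. Cullins are the scaffolds of the largest family of ubiquitin ligases, and the cycle of adding and removing NEDD8 switches these ligases on and lets them exchange the receptors that choose their substrates. Many proteins with a BTB domain, the domain that ZBTB16 carries, can serve as such receptors for the cullin CUL3. In the complex, COPS5 holds the metal-dependent protease site and COPS6 is its inactive partner of the same fold, both with an MPN domain. GPS1 (also known as CSN1), COPS2, COPS3, COPS4, COPS8 and the alternative subunits COPS7A and COPS7B carry a PCI domain and form the scaffold. COPS9 is a very small acidic subunit that binds the assembled complex.

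The genes described here are GPS1, COPS2, COPS3, COPS4, COPS5, COPS6, COPS7A, COPS7B, COPS8 and COPS9, matched by name, and all 10 were found among the 26921 rows of each deposited gene table. The group was chosen by the change of COPS9, which had one of the deepest falls between the compared groups. The other 9 came with it as the remaining subunits of the same complex. The difference of COPS9 is therefore given as a description, with no test.

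RNA was sequenced from cultured cells that the labels call immature spermatogonia from pig testis, in 2 control libraries of genotype WT and 2 libraries with knockdown of ZBTB16, a transcriptional repressor found in undifferentiated spermatogonia. The series' plan is a hairpin RNA delivered by lentivirus to primary cells. The labels do not say whether the control cells received a vector, so virus and knockdown cannot be told apart. The sources used here do not give the animals' age at collection, their breed or whether animals were pooled. The libraries held 15983390 to 18500447 expected counts, and the labels describe the RNA as coming from 2 independent experiments. Replicates of a group differed by little more than counting noise (chi-square per gene 1.15 in the controls and 1.26 in the knockdown, where 1 is counting noise alone), so the spread behind the p-values is that between these libraries alone, which may be technical, and small differences pass the test.

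The targeted gene was lower in both knockdown libraries, with ZBTB16 at 1.77 and 1.76 FPKM in the controls and 1.37 and 1.34 in the knockdown (log2 fold change -0.36, SE 0.109, edgeR adjusted p = 0.00338; 0.109 with DESeq2). FPKM is the fragment count scaled to transcript length and to library size. Germ cell markers were present at low levels, with 8 of 10 at a mean of 1 FPKM or more, none at 0, and summed FPKM of 148.5 to 149.6 in the controls and 109.5 to 114.3 in the knockdown. UCHL1 alone gave 121.72 and 120.41 of the control sums while GFRA1 and SALL4 were under 1 in every library. The sum followed UCHL1: by edgeR 4 of the 10 germ cell markers were called higher (DAZL, SALL4, KIT and PIWIL2) and 3 lower (UCHL1, DND1 and ZBTB16). Markers of other testis cells were also present, none at 0, with 6 of 6 Sertoli, 5 of 5 peritubular myoid, 3 of 6 Leydig, 4 of 5 macrophage and 1 of 4 endothelial markers at 1 FPKM or more. Summed FPKM was 752.1 to 765.1 and then 929.6 to 956.9 for 6 Sertoli cell markers, 5304 to 5389 and then 5127 to 5230 for 5 peritubular myoid markers, and 203.8 to 207.1 and then 169.8 to 181.2 for 6 Leydig cell markers. Of those 5 peritubular markers only TAGLN had a lower mean FPKM, and edgeR called the other 4 higher. The lower sum is one of FPKM. In CPM, counts scaled to library size, TAGLN went from 1683 and 1618 to 1351 and 1327, and ACTA2 from 3068 and 3063 to 3520 and 3450. Summed FPKM was 33.0 to 36.85 and then 22.24 to 24.04 for 5 macrophage markers, and 10.13 to 11.71 and then 9.43 to 10.28 for 4 endothelial markers. FPKM summed over all genes was also lower (739807.9 and 742383.3, then 634961.9 and 632880.6), so a lower marker sum need not be a lower share. By edgeR 1 of 5 tested Leydig, 3 of 5 macrophage and 0 of 4 endothelial markers were called lower. Of 6 Sertoli markers 5 were called higher and 1 lower. Over all tested genes 23.8% were called lower and 22.7% higher. In such bulk samples fewer cells of a type and less RNA per cell cannot be told apart, and the part of the cell mixture in the values below was not tested. Fragments averaged 325.74 and 326.74 bases in the controls but 266.36 and 267.35 bases in the knockdown, so fragment length and group cannot be told apart. The share of counts from mitochondrial genes also split by group, at 4.155% and 4.288% against 5.714% and 5.708%.

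COPS9 has the shortest transcript of the complex. On Sscrofa 11.1 it lies on the minus strand of chromosome 15, from 139260471 to 139264252, with 3 exons of 155, 73 and 264 bases that make a transcript of 492 bases. The next subunit in length, COPS6, has a transcript of 1032 bases, and the longest, COPS7B, averages 2907 bases. The coding part of COPS9 is 174 bases long and encodes 57 amino acids, against 209 for COPS8, the next smallest annotated coding model. It is shown because this small reading frame sets COPS9 apart from the other subunits. The sequence is from RefSeq's Sscrofa 11.1, spliced from the exons within chr15:139260697-139264160, minus strand, with the start and stop codons in capitals.

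COPS9: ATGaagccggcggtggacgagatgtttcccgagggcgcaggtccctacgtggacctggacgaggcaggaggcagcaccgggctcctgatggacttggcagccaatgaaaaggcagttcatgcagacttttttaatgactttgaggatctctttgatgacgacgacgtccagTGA

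The catalytic subunit is recognised by a different feature. COPS5 carries the JAMM motif, in which 2 histidines and an aspartate hold the zinc ion. A search of the translated RefSeq models for histidine, any residue, histidine, any 10 residues and aspartate found it in 2 of 3 COPS5 models, and in the 334-residue model at residues 138 to 151. No match was found in the 323-residue model of COPS6, the subunit with the same fold. The stretch of that model is shown to mark the active site, from RefSeq's Sscrofa 11.1 at chr4:67745015-67745056, plus strand, and the codons for the 3 metal-binding residues are in capitals.

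COPS5: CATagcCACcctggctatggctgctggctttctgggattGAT

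COPS9 was much lower in both knockdown libraries. It had 788 and 649 expected counts in control replicates 1 and 2 and 221 and 217 in knockdown replicates 1 and 2, or 45.6, 40.6, 11.95 and 13.1 CPM, counts scaled to library size. The corresponding FPKM values were 271.16 and 242.88 against 52.69 and 58.09, a mean of 257 ± 20 in the controls and 55.4 ± 3.82 in the knockdown (SD, n = 2). The 2 groups were far apart on both scales, while replicates of COPS9 differed by at most 0.17 in log2 CPM. The fitted log2 fold change of the counts was -1.77 (SE 0.0771), or 0.293 times the control level. By FPKM the ratio was 0.216, because FPKM divides by an effective length that was 168.14 and 167.18 bases in the controls and 226.74 and 225.75 bases in the knockdown. Ordered by fitted change, COPS9 stood 16th from the lowest of 15763 tested genes, and lowest of the 6556 that have a gene symbol and a mean of at least 10 FPKM.

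**Figure D1:**
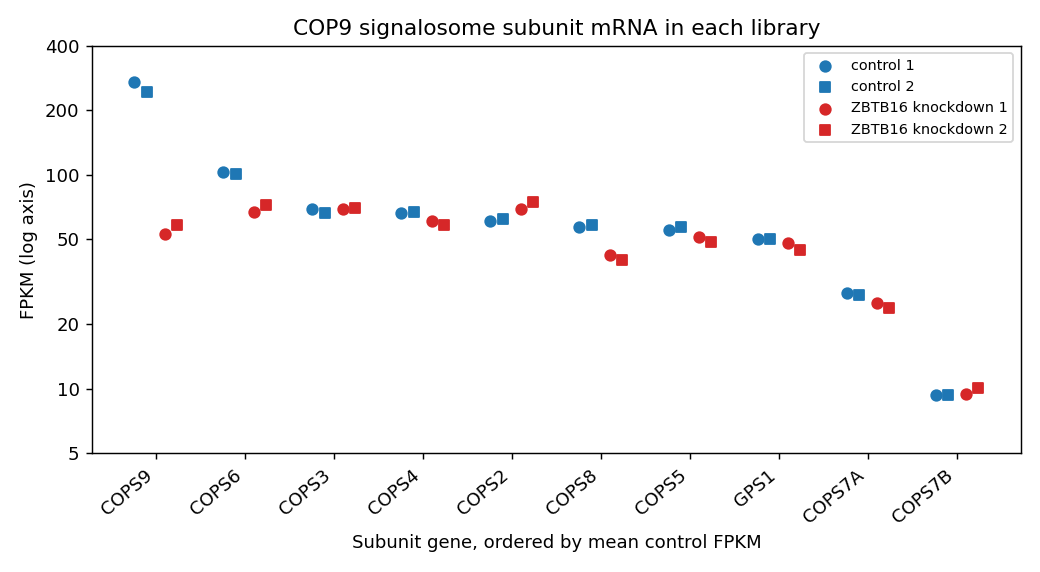
FPKM (log axis) of the 10 subunit genes in each of the 4 libraries, ordered by mean control level; blue points are control libraries, red points knockdown libraries, and circles and squares are replicates 1 and 2. COPS9 moved from 242.88 and 271.16 to 52.69 and 58.09, COPS6 and COPS8 were lower by less, and the libraries of the remaining subunits lay closer together.

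Among the other 9 subunits, COPS6 and COPS8 fell, COPS2 rose and 6 did not pass the test. Calls here are adjusted p-values under 0.05 from edgeR's quasi-likelihood test on expected counts, adjusted over every tested gene by Benjamini-Hochberg. That rule called 46.4% of the 15763 tested genes, 23.8% as lower and 22.7% as higher, so 3 of 9 is no more than the share called everywhere. The median log2 change of these 9 was -0.06, against 0.00 over all tested genes. All 10 subunits passed the filter on low counts.

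The MPN pair differed. COPS5, the protease subunit (chromosome 4, 67740528 to 67758153), had 55.41 and 56.78 FPKM in the controls and 51.01 and 48.80 in the knockdown. Its counts changed by -0.06 on the log2 scale (SE 0.054, edgeR adjusted p = 0.351, approximate 95% interval -0.17 to 0.04), which does not pass. COPS6, its inactive partner (chromosome 3, 8002702 to 8005545), had 102.83 and 101.25 FPKM in the controls and 66.98 and 72.14 in the knockdown. The knockdown libraries lay well below both controls, and the counts of COPS6 fell to 0.747 times control (1257 and 1143 counts against 950 and 914; log2 -0.42, SE 0.0487, adjusted p = 6.68e-14). In the controls COPS6 was the second most abundant subunit mRNA per length, and in the knockdown its libraries overlapped those of COPS3.

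COPS8, the smallest of the PCI subunits (chromosome 15, 136828222 to 136838058), fell by a similar factor. It had 57.36 and 58.00 FPKM in the controls and 42.32 and 39.94 in the knockdown, from 1329 and 1238 counts against 1098 and 929. The fitted log2 change was -0.40 (SE 0.0471, edgeR adjusted p = 1.91e-13), or 0.759 times control. COPS2, a scaffold subunit also known as the corepressor TRIP15 (chromosome 1, 122542324 to 122574462), went the other way. It had 60.79 and 62.49 FPKM in the controls and 69.52 and 74.50 in the knockdown, and the fitted rise was 1.14-fold (SE of log2 0.036, log2 0.19, adjusted p = 3.75e-06). Both knockdown libraries were above both controls, and COPS2 had the highest mean FPKM of the subunits in the knockdown, though its libraries overlapped those of COPS3.

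The remaining PCI subunits did not pass. COPS3 (chromosome 12, 61000562 to 61023920) had 68.94 and 66.67 FPKM in the controls and 69.06 and 70.21 in the knockdown (log2 0.09, SE 0.041, edgeR adjusted p = 0.0511), just short of the threshold. GPS1, a PCI scaffold subunit (chromosome 12, 951865 to 958423), had 49.97 and 49.89 FPKM and then 47.79 and 44.56 (log2 -0.04, adjusted p = 0.513). COPS4 (chromosome 8, 135280475 to 135314393), which takes part in sensing the bound cullin, had 66.26 and 67.09 FPKM and then 60.99 and 58.50 (log2 -0.06, adjusted p = 0.236). The approximate 95% intervals of the log2 change included 0 for GPS1 (-0.13 to 0.05) and COPS4 (-0.15 to 0.02), and that of COPS3 was 0.01 to 0.17. For COPS4, 2 stretches of chromosome 1 match 86.3% and 86.0% of its transcript at 87.7% and 86.5% identity. Whether reads from them entered its counts was not tested. No stretch elsewhere in the assembly matched at least 20% of the transcript of any of the other 9 at an identity of 85% or more.

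COPS7A and COPS7B occupy the same place in the complex as alternatives to each other. COPS7A (chromosome 5, 63970543 to 63977470) had 27.95 and 27.57 FPKM in the controls and 25.25 and 23.94 in the knockdown (log2 -0.10, SE 0.0576, edgeR adjusted p = 0.13). COPS7B (chromosome 15, 132427023 to 132451199) had 9.39 and 9.36 FPKM and then 9.49 and 10.05 (log2 0.05, SE 0.0739, adjusted p = 0.649). COPS7A was the more abundant of the pair in all 4 libraries, and COPS7B was the least abundant subunit mRNA of the complex. In this RefSeq release COPS7B has only 4 non-coding transcript models and is classed as lncRNA, so its level here is that of those models. CPM of COPS7B overlapped between the groups, at 24.94 and 24.53 in the controls and 24.49 and 26.04 in the knockdown. The loci of GPS1, COPS4, COPS5 and COPS7B each overlap 1 other annotated gene, and the sources used here do not say whether strand was used in counting.

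The balance of subunit mRNAs changed mainly through COPS9. Because COPS9 was chosen for its fall, its lower share is a description of that fall and no separate result. In control replicates 1 and 2 COPS9 held 35.2% and 32.7% of the FPKM summed over the 10 genes, and in knockdown replicates 1 and 2 it held 10.6% and 11.6%. As a share of the summed counts it went from 6.66% and 6.0% to 1.93% and 2.12%. Its FPKM was 4.73 and 4.19 times the median of the other 9 in the controls and 1.03 and 1.19 times in the knockdown. By FPKM its excess over the other subunits was thus nearly gone. The size of that excess depends on the effective length of COPS9, which differed by group. It was 168.14 and 167.18 bases in the controls and 226.74 and 225.75 bases in the knockdown. The sum of the other 9 differed far less. Their summed CPM values were 638.9 and 636.4 in the controls and 606.1 and 605.7 in the knockdown, and their summed FPKM was 498.9 and 499.1 and then 442.4 and 442.6. FPKM summed over all genes was lower too, at 739807.9 and 742383.3 in the controls and 634961.9 and 632880.6 in the knockdown, so the lower FPKM sum of the 9 is not a lower share of all FPKM.

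In the controls the order per length was COPS9, COPS6, COPS3, COPS4, COPS2, COPS8, COPS5, GPS1, COPS7A and COPS7B. Of these neighbours only COPS3 and COPS4 had overlapping control libraries. In the knockdown the order by mean FPKM was COPS2, COPS3, COPS6, COPS4, COPS9, COPS5, GPS1, COPS8, COPS7A and COPS7B. The libraries of COPS2, COPS3 and COPS6 overlapped there, and no other neighbours did. In this order by FPKM, COPS9, the gene chosen for its fall, moved from rank 1 to rank 5. COPS8 moved from rank 6 to rank 8, while the lowest places of COPS7A and COPS7B were the same in both groups.

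Transcript length moved with the changes. Among tested protein-coding genes, 68.2% of the 85 with transcripts under 500 bases and 67.2% of the 740 with 500 to 1000 bases were called lower, at median log2 changes of -0.69 and -0.45. COPS9, at 492 bases and -1.77, lay below both medians. A gene chosen for one of the deepest falls would do so in any case, so this is no separate result. The class under 500 bases was not lower as a whole: all 235 tested genes of that length, non-coding ones included, had a median of 0.70. Of the 2906 genes with 1000 to 2000 bases 45.3% were called lower, at a median of -0.19. GPS1, COPS3, COPS4, COPS5, COPS6, COPS7A and COPS8 belong to this class, and COPS6 and COPS8 were below its median while the other 5 were above it. The 5594 genes of 2000 to 4000 bases, the class of COPS2, had a median of -0.01, as did all 5920 tested genes of that length, which include the non-coding model of COPS7B.

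**Figure D2:**
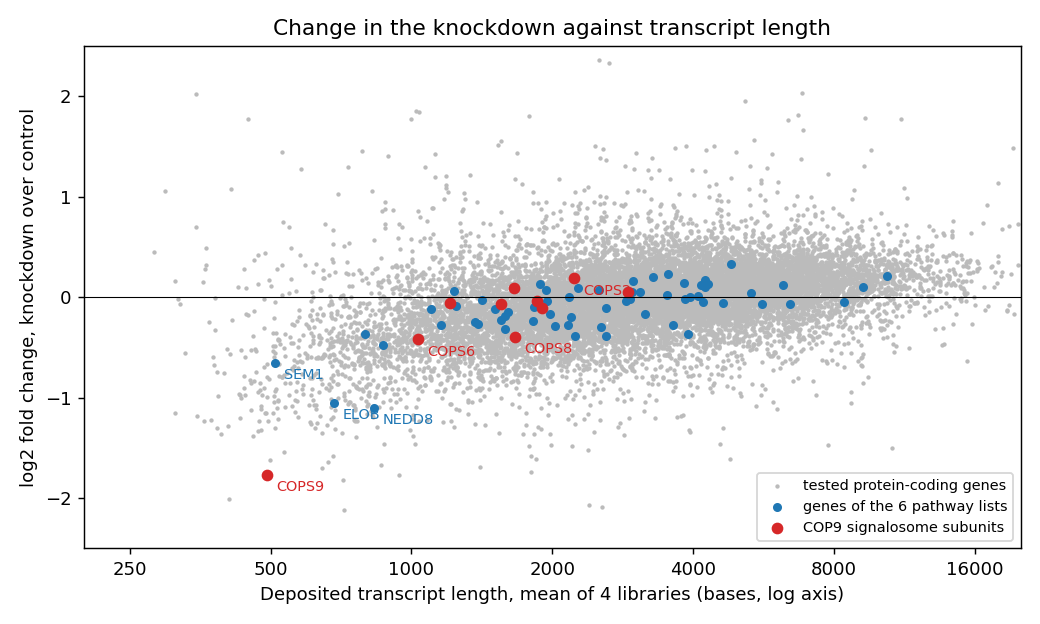
Log2 fold change (knockdown over control, edgeR) against deposited transcript length in bases (log axis) for the tested protein-coding genes (grey; 19 of 14508 lie outside the axes), the genes of the 6 lists around the complex (blue) and the 10 subunits (red). Short protein-coding transcripts lie lower as a class. COPS9, chosen for its fall, has 492 bases and lies at -1.77, where the median for protein-coding genes under 500 bases is -0.69.

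COPS9 was lower in all 16 analyses, which reuse the libraries it was chosen from, so this agreement is no separate support. For COPS9 the size of the difference depended on how length was treated. Its log2 change was -1.62 with a smooth trend of transcript length removed from each library and -1.25 once GC content was treated in the same way too. The trend was fitted over all tested genes, coding and non-coding. Under 500 bases these had a median of 0.70, against -0.69 for the protein-coding ones. At the length of COPS9 the trend need therefore not follow that of short protein-coding transcripts. With the deposited effective length entered in the model it was -2.17. On limma's log2(FPKM + 1) scale, with a pseudocount of 1, it was -2.19. What part length, GC content or fragment size has in the difference of COPS9 was not tested. Leaving out 1 library at a time gave -1.68 to -1.85.

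COPS6, COPS8 and COPS2 were called in the same direction in all 16 analyses. After removal of both trends COPS6 was at -0.12 (adjusted p = 0.0221) and COPS8 at -0.25 (adjusted p = 9.46e-07). With the length trend alone removed they were at -0.20 and -0.24, against -0.42 and -0.40 by counts. The other 6 depended more on the unit. With limma on log2(FPKM + 1), which called 29.7% of 13072 genes as lower, COPS4, COPS5 and COPS7A also passed as lower, at -0.16, -0.17 and -0.17 (adjusted p = 0.0182, 0.0191 and 0.0265). On that scale 34.4% of all called genes were higher, against 48.8% by counts, and the median over all genes was -0.05. After removal of length and GC trends, where 19.3% of 15283 genes were called higher, GPS1 and COPS3 passed as higher, at 0.18 and 0.31 (adjusted p = 2.48e-04 and 2.27e-11). With the length trend alone removed, where 3045 of 15763 genes were called higher, COPS3 passed as higher too (0.26, adjusted p = 1.1e-08). It did so in 4 of the 16 analyses. COPS4 passed as higher with the length trend alone (0.10, adjusted p = 0.046), the opposite direction to its limma call. COPS7B passed in none of the 16.

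**Figure D3:**
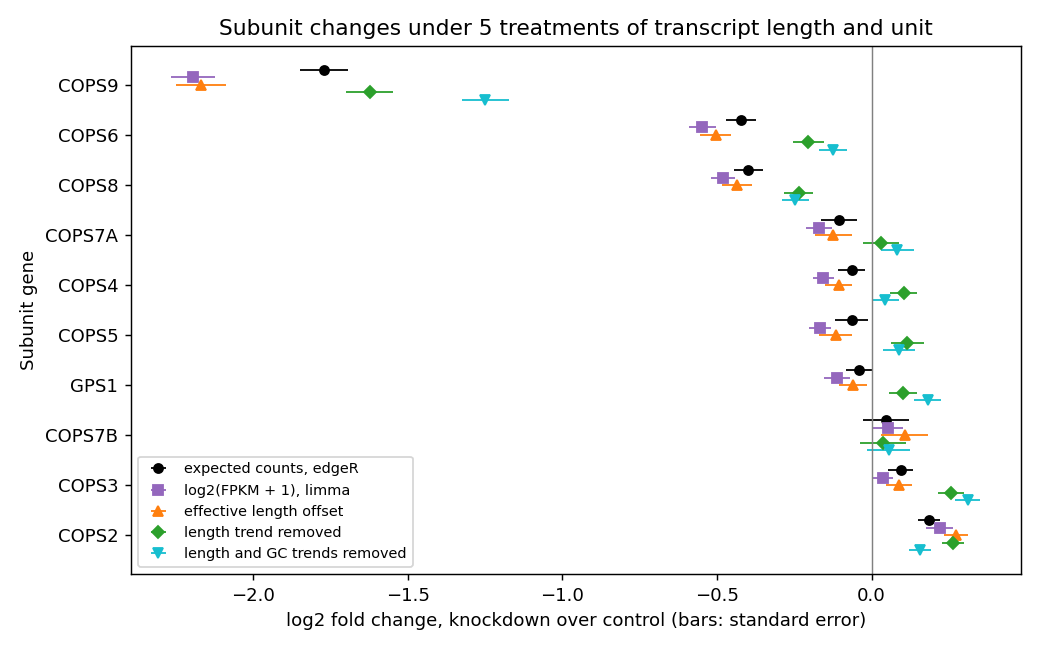
Log2 fold change (knockdown over control) of each subunit gene with its standard error, by counts in edgeR, by log2(FPKM + 1) in limma, with effective length in the model, and with a length trend or both length and GC trends removed. COPS9 ranged from -2.19 to -1.25, COPS6 and COPS8 stayed below 0 and COPS2 above 0, while COPS3 reached 0.31 and GPS1 0.18 with length and GC trends removed.

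Of 12 tested genes that supply NEDD8 to cullins, 7 were called lower and 2 higher, at a median log2 change of -0.22, where 23.8% and 22.7% of all tested genes were so called. With the length trend removed 5 were lower and 1 higher, at a median of -0.09, where 3403 of 15763 tested genes were lower and 3045 higher. NEDD8 itself had 118.75 and 128.17 FPKM in the controls and 51.12 and 50.07 in the knockdown, and its counts fell to a log2 change of -1.11 (SE 0.0577, edgeR adjusted p = 1.61e-41; -0.71 to -1.28 over the 16 analyses). Its transcript of 830 bases is also short. On the log2 scale UBE2M, the NEDD8 conjugating enzyme, fell by 0.25 and its relative UBE2F was at -0.12 (adjusted p = 0.181). The RING proteins RBX1 and RNF7, which dock the conjugating enzyme, fell by 0.27 and 0.48, and DCUN1D1, a co-ligase, rose by 0.22. With the length trend removed UBE2M and RNF7 did not pass (adjusted p = 0.144 and 0.058), and with length and GC trends removed DCUN1D1 did not (adjusted p = 0.0938).

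Of 6 genes of NEDD8 removal and cullin exchange besides the complex, 1 fell, 1 rose and 4 did not pass (median 0.04; -0.04 with the length trend removed), again beside 23.8% lower and 22.7% higher over all tested genes. SENP8, which processes NEDD8, fell by 0.27 on the log2 scale (adjusted p = 0.0175), but lost the call without control replicate 1, control replicate 2 or knockdown replicate 1 (adjusted p = 0.0824, 0.0507 and 0.148) and with DESeq2 (0.215). CAND1, the exchange factor, rose by 0.10 (adjusted p = 0.00156) and was called lower with the length trend removed (-0.07, adjusted p = 0.0356). ITPK1, an inositol kinase, was at 0.16 (adjusted p = 0.0809). Of the 8 cullins 3 rose, 1 fell and 4 did not pass (median 0.02). With the length trend removed 1 rose and 3 fell, where 3045 of 15763 tested genes rose and 3403 fell. By counts CUL4B rose by 0.33 (51.70 and 53.06 against 63.39 and 64.39 FPKM, edgeR adjusted p = 1.19e-23) and CUL4A fell by 0.17 (adjusted p = 0.00126; 0.0682 with DESeq2). CUL1 was at 0.05 (adjusted p = 0.216). CUL3 rose by 0.10 (adjusted p = 0.0163), a call lost without control replicate 1 or knockdown replicate 2 (0.188 and 0.169) and with DESeq2 (0.154). The third riser, CUL5 (log2 0.12, adjusted p = 0.0372), lost the call without any 1 of the 4 libraries (0.0574 to 0.231) and with DESeq2 (0.25).

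Among 15 cullin adaptors and substrate receptors 5 fell, 3 rose and 7 did not pass (median -0.07), against 23.8% lower and 22.7% higher over all tested genes. With the length trend removed 6 were lower and 2 higher (median -0.09), and with GC removed as well 7 were lower and 1 higher (median -0.13). Over all tested genes these 2 fits called 3403 of 15763 and 3068 of 15283 lower, and 3045 and 2948 higher. ELOB, the elongin B adaptor of CUL2 and CUL5 ligases with a transcript of 683 bases, fell from 171.50 and 168.98 to 66.78 and 72.22 FPKM (log2 -1.06, adjusted p = 2.03e-39; -0.56 to -1.29 over the 16 analyses). SKP1, the adaptor of CUL1, fell by 0.24 on the log2 scale and DDB1, that of CUL4, rose by 0.17 (adjusted p = 1.95e-12 and 7.13e-09). SKP2, an F-box receptor, rose by 0.20 (adjusted p = 0.0163), and lost the call without control replicate 1, control replicate 2 or knockdown replicate 1. It also lost the call with DESeq2 (0.192), with limma on FPKM in all 3 forms and with length and GC trends removed (0.0537).

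The proteasome lid and the translation factor eIF3 share the PCI and MPN plan with the signalosome. Of 9 lid genes 6 fell, 1 rose and 2 did not pass (median -0.19), and of 12 tested eIF3 genes 3 fell, 3 rose and 6 did not pass (median -0.01), beside 23.8% lower and 22.7% higher over all tested genes. With the length trend removed 3 lid genes were lower and 2 higher (median -0.02), and 2 eIF3 genes were lower and 6 higher (median 0.09). That fit called 3403 of all 15763 tested genes lower and 3045 higher. With GC removed as well, 1 eIF3 gene was lower and 7 were higher (median 0.11), where 3068 of 15283 genes were lower and 2948 higher. SEM1, the smallest lid subunit, resembles COPS9 in its short transcript of 511 bases, and it fell from 490.76 and 513.41 to 242.67 and 232.71 FPKM (log2 -0.65, adjusted p = 4.48e-29; -0.46 with the length trend and -0.24 with length and GC trends removed). Its row holds a non-coding model in this RefSeq release, and a second locus, SEM1-2, was at 0.54 to 4.11 FPKM. On the log2 scale PSMD14, the lid's counterpart of COPS5, fell by 0.19, PSMD7, the counterpart of COPS6, fell by 0.15, and PSMD12 rose by 0.14. With the length trend removed PSMD14 and PSMD7 were at -0.02 and 0.01 (adjusted p = 0.727 and 0.783), while PSMD12 lost its call with length and GC trends removed (0.871). In eIF3, EIF3K fell by 0.37 (adjusted p = 0.416 with the length trend removed), EIF3F was at -0.09 (adjusted p = 0.1) and EIF3H at 0.06 (adjusted p = 0.0792; 0.0453 without knockdown replicate 2). With the length trend removed EIF3H was called higher, at 0.24 (adjusted p = 1.31e-13). EIF3E and EIF3J rose by 0.07 and 0.13. Neither passed with DESeq2 (adjusted p = 0.222 and 0.109) or with limma on FPKM in any of its 3 forms. Over the 6 lists 23 of 62 tested genes were called lower and 13 higher, where 23.8% and 22.7% of all tested genes were, so the higher calls are near the share called everywhere. EIF3E lost the call without control replicate 1 or knockdown replicate 2 (0.549 and 0.348), and EIF3J without control replicate 2 or knockdown replicate 2 (0.247 and 0.055).

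**Figure D4:**
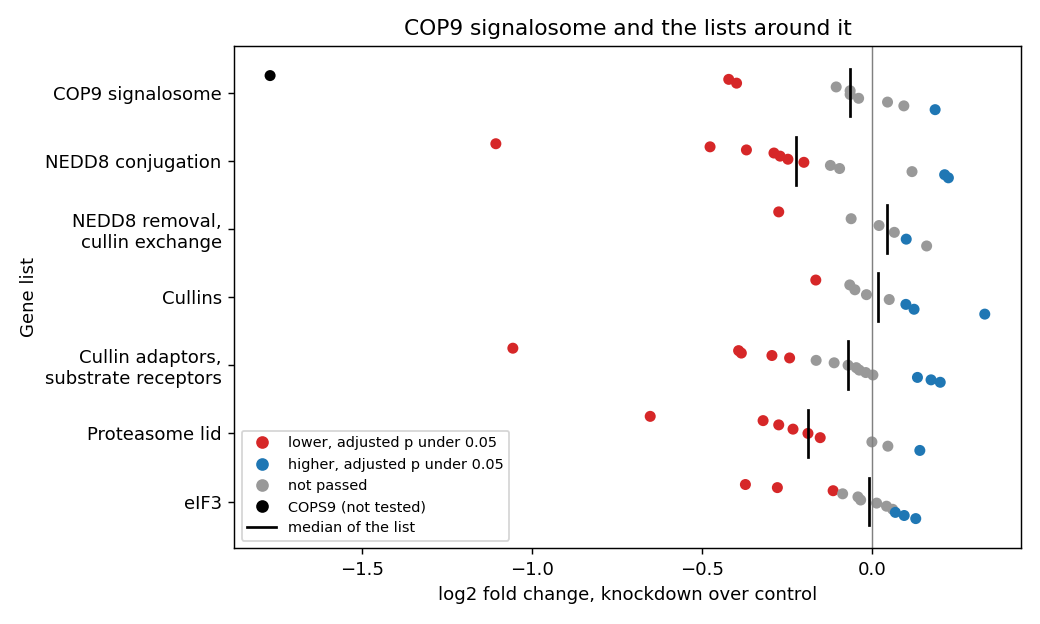
Log2 fold change (knockdown over control, edgeR) of each gene of the COP9 signalosome and of 6 related lists; red and blue points passed as lower and higher, grey points did not pass, COPS9 is black, and vertical bars are list medians. The signalosome without COPS9 is centred at -0.06, with NEDD8 (-1.11) and ELOB (-1.06) the points nearest to COPS9.

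The tested genes on either side of COPS9 had much smaller differences, in opposite directions. NDUFA10, a complex I subunit 228578 bases below it on chromosome 15, had 60.57 and 59.60 FPKM in the controls and 49.51 and 49.07 in the knockdown (log2 -0.19, edgeR adjusted p = 3.2e-04; 0.06, not passing, with length and GC trends removed). GPC1, a heparan sulfate proteoglycan 193613 bases above it, rose by 0.29 on the log2 scale (adjusted p = 2.59e-20). OTOS, the adjacent annotated gene, was at 0.36 to 0.60 FPKM and was too low to be tested.

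Over the 4 libraries, the genes whose centred log2(FPKM + 1) profiles lay nearest to that of COPS9 were RPS21, RPL37A, RPL36, ROMO1 and COX6C, at Euclidean distances of 0.13, 0.17, 0.20, 0.29 and 0.43. With 4 libraries in 2 groups this likeness is mostly that of the group difference. RPS21, RPL37A and RPL36 encode ribosomal proteins, ROMO1 and COX6C mitochondrial proteins. Their transcripts were 348, 499, 392, 385 and 470 bases long, and COPS9 has 492. By counts their log2 differences were -1.19, -1.62, -1.36, -1.31 and -1.33, against -1.77 for COPS9.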

How the data were processed

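Per the labels' protocols, the authors used SOAPnuke 2.1.0 for filtering, HISAT2 2.2.1 for alignment to Sscrofa 11.1, bowtie2 2.3.5 for mapping to transcripts and RSEM 1.3.3 for counting. RSEM's expected counts, as deposited, were whole for 84.0% to 85.0% of values above 0. The authors also deposited FPKM, per-gene lengths and TPM (not used). Expected counts were rounded and fitted over the whole table in edgeR 4.0.16 (R 4.3.3; TMM, filterByExpr with minimum count 10 and total 15, two-sided quasi-likelihood test, Benjamini-Hochberg over all tested genes). SE is the size of the log2 change divided by the square root of the F statistic, and approximate 95% intervals use the normal distribution. An exact permutation test of 2 against 2 cannot give p below 0.333. Alternatives used DESeq2 1.42.0, limma 3.58.1 (genes with at least 1 FPKM in 2 libraries) and mgcv 1.9.3 for trends. Scripts were tested on simulated data. Positions come from the RefSeq annotation of Sscrofa 11.1, and copies were sought with blastn 2.17.0.

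Members, lists and tests were chosen with earlier results of these data known. Named were the 10 subunits, ZBTB16, 20 genes listed by name, each list's largest rise and fall, the tested neighbours of COPS9 and the 5 most alike genes. OTOS, SEM1-2, CUL5 and the marker genes were added after their values were seen.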

Additional observations from a re-analysis of the deposited data

How the results depend on the processing

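Over 15 alternatives for 44 named genes, 566 of 660 values kept their call or stayed uncalled, 56 lost the call, 25 gained one and 13 reversed. Values uncalled both by counts and in the alternative were counted as kept whatever their sign. For the 9 subunits besides COPS9 these were 121 of 135 kept, 0 lost, 12 gained and 2 reversed. Some of the 121 changed sign while uncalled. GPS1 (0.10), COPS5 (0.12) and COPS7A (0.03) did so with the length trend removed, and COPS4 (0.045) with both trends removed. In place of 7319 genes, 4452 were called with DESeq2 and 4438 with limma on log2(FPKM + 1) without its filter. Subunits called lower were 2 by counts, 5 with limma on log2(FPKM + 1) or log2(FPKM + 0.1), and 4 without the FPKM filter. Subunits called higher were 1 by counts, 2 with DESeq2's size factors in edgeR, 2 at an unadjusted p under 0.05, and 3 with the length trend or with length and GC trends removed. Over all tested genes the last 2 fits called 3045 of 15763 and 2948 of 15283 higher. With the replicate number as a replicate block 7480 genes were called, and 2 subunits as higher, COPS3 being added (adjusted p = 0.0343). Replicate 1 deviations of the groups correlated at 3.6e-04. These deviations are little more than counting noise, so the correlation cannot show whether samples with the same number were paired. Over the 6 lists 13 genes were called higher, but 7 with DESeq2, 3 with either pseudocount in limma and 2 without the FPKM filter. Without 1 library 6040 to 6265 genes were called. The cause of these differences was not tested.

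Reversals came with length and GC trends removed for GPS1 (0.18), UBE2M (0.024), CAND1 (-0.13), CUL3 (-0.022), EIF3F (0.21), EIF3K (0.048) and NDUFA10 (0.056), with the length trend removed for COPS4 (0.10), CAND1 (-0.07) and PSMD7 (0.014), and for EIF3E (-0.001) with limma on FPKM in all 3 forms. COPS9 (217 to 788 counts) and COPS7B (392 to 453) had the fewest counts of the subunits and the largest standard errors.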
